A study of Mus musculus with 6 samples.

Results

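The 10 genes described here encode components of basement membranes: the collagen IV chains Col4a1 and Col4a2, the laminin chains Lama4, Lama5, Lamb1 and Lamc1, the nidogens Nid1 and Nid2, and the heparan sulfate proteoglycans Hspg2 and Agrn. The list is one of names with no threshold on measured values, but it was chosen with earlier results of these data known. Counts of members called, set beside the share of all genes, are therefore a description. All were found by Ensembl gene ID in each of the 6 deposited tables, where they are 10 of the 14450 genes listed in all of them. The tables hold single-cell RNA-seq of the bladder mucosal layer of wild type C57BL/6 mice, 8 weeks old. There were 2 libraries each from healthy mice, from acutely injured mice taken 48 hours after cyclophosphamide (CPP, a drug whose breakdown products injure the urothelium) and from chronically injured mice given 4 rounds of CPP, taken 48 hours after the last one and labelled as 11 days of treatment. Genotype, strain and age were the same in all groups. By the study's methods each group included males and females, and the single acute dose was higher than each chronic one. The mucosa was peeled from the bladder and digested with collagenase and DNase before droplets were made. The libraries were prepared as biological replicates from pooled mice, and no label ties a library to single animals, so p-values measure the spread between these libraries. By the study's methods the samples were processed and sequenced in batches, no label used here says which library was in which, and batch and condition cannot be told apart. The question asked of these genes was which cells of the mucosa carried their transcripts, and whether that changed after acute or chronic injury.

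A basement membrane is a thin sheet of matrix that lies under epithelia and endothelia and around muscle cells. Laminins are each built of an alpha, a beta and a gamma chain, and many of them, though not all, polymerise at the cell surface. Collagen IV forms the covalent network that gives the sheet its strength, and nidogens and the proteoglycans perlecan and agrin tie the networks together. In the bladder the sheet separates the basal cells of the urothelium from the lamina propria, where fibroblasts, myofibroblasts, vessels and pericytes lie. Its parts can be made on both sides, by the epithelium and by the stroma.

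Col4a1 and Col4a2 are neighbours that are transcribed away from each other, so the sequence around their starts is shown before their values. In GRCm38, Col4a1 (ENSMUSG00000031502) lies on the minus strand at chr8:11198423-11312826 and Col4a2 (ENSMUSG00000031503) on the plus strand at chr8:11312805-11449287. Their annotated first bases, 11312826 and 11312805, are so placed that the genes overlap head to head by 22 bases. RefSeq promoter windows of 300 bases, 250 before the start and 50 after it, were found for 7 of the 10 members in GRCm38.p6. The windows of the collagen IV pair, at chr8:11312777-11313076 on the minus strand and chr8:11312555-11312854 on the plus strand, share 78 bases, which are in capitals here and read as reverse complements of each other. The window of Lama5, a gene with a different pattern over the cell classes, is given beside them (chr2:180225810-180226109, minus strand), and its capitals mark the letters GGGCGG on either strand. All 3 are written 5′ to 3′ on the gene's own strand.
Col4a1: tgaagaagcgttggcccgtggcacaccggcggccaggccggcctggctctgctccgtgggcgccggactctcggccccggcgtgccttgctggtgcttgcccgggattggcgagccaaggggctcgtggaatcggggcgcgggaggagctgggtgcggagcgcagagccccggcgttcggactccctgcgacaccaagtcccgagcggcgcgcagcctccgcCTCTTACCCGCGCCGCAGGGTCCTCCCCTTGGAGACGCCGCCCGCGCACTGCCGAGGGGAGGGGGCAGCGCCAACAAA
Col4a2: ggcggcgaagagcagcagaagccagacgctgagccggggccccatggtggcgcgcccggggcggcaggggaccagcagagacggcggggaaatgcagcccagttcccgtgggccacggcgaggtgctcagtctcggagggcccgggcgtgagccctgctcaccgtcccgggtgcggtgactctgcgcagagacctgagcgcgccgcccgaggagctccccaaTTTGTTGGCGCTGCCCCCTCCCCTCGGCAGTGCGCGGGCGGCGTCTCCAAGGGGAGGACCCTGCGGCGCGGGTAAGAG
Lama5: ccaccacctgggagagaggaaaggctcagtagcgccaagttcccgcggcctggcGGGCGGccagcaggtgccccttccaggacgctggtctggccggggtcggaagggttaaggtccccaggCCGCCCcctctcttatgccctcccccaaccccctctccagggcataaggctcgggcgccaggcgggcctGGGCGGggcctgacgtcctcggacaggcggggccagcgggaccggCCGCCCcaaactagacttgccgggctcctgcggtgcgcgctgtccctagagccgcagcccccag
GGGCGG was found once in the Col4a1 window, 3 times in that of Col4a2 and 4 times in that of Lama5, counting both strands. The Col4a1 match lies in the shared bases and is also counted among those of Col4a2. Of 32851 RefSeq promoter windows of the same length, 35.7% held it. The letters CCAAT occurred once in each of the collagen IV windows and not in that of Lama5, against 37.4% of all windows, and TATAAA (13.6% of all windows) was in none of the 3. These are letter matches in a fixed window and say nothing of which factor binds there.

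The 6 libraries held 5348 to 15062 cell barcodes and 54604109 to 111985678 UMIs, and any pair of them shared 36 to 229 barcodes. After filtering, 55398 cells were clustered without the members. Called doublets and clusters rich in them were then left out, and clusters were given names from marker genes: 5406 fibroblast-like cells, 3841 myofibroblast-like cells, 980 stromal cells left unnamed, 492 endothelial-like cells, 178 mural-like cells (pericytes and smooth muscle), 364 NK and T-like cells, 928 macrophage-like cells, 1789 cycling basal and 2455 cycling luminal cells, and 8511 basal, 21886 intermediate and 2762 superficial urothelial-like cells that were not cycling. The names are used without the ending from here on. UMIs were summed within a class and library wherever it had at least 20 cells, and a level is given as CPM, the gene's UMIs scaled to the same total in every sum as is usual for that unit. Pecam1, which marks endothelium, was at 246 to 833 CPM in endothelial sums, Cspg4, which marks pericytes, at 96.0 and 168 CPM in mural sums, and the keratin Krt5 at 1006 to 1321 CPM in basal sums. Healthy replicate 2 had 15 endothelial cells and did not enter the endothelial fits, and only the acute libraries had enough mural cells, 24 and 114. The fibroblasts of chronic replicate 2 stood apart: there were 78 of them, of which 63 belonged to 1 sub-type, their Dcn, Col1a1 and Col3a1 summed to 6809 CPM against 17500 to 31830 CPM in the other libraries, and their Krt5 was at 449 CPM against 35.5 to 93.7 CPM.

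Droplets also hold RNA released by other cells, so each level was set beside markers of the cells it might come from. In NK and T cells, which are not known to make basement membrane, Lama5 was at 11.0 to 39.5 CPM and Agrn at 13.8 to 37.9 CPM in the 3 libraries with enough cells, while Lama4 and Nid2 had no UMI there, which allows up to 8.26 to 19.8 CPM at 3 UMIs, a limit that covers counting error only. Krt5 in the same sums was at 201 to 626 CPM. Fibroblasts held Lama5 at 9.07 to 37.1 CPM and Agrn at 14.7 to 43.8 CPM, which overlapped the values of NK and T cells, and the part of urothelial RNA in them was not tested. Col4a1, Col4a2, Lamb1, Lamc1, Nid1 and Hspg2 lay higher in fibroblasts than in NK and T cells without overlap, as for Col4a1 with 80.9 to 154 CPM against 0 to 22.03 CPM. Lamc1 was at 25.2 to 32.9 CPM in NK and T cells, within the range of basal cells (18.2 to 37.1 CPM).

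Col4a1 and Col4a2, the chains of the most widespread collagen IV, had their highest mean over libraries in myofibroblasts, the contractile stromal cells that express Acta2. The top 10 genes of the most contractile clusters of this class included Actg2 and Myh11, and in 1 of them Cnn1. These genes were also on the list of mural markers, and the part of smooth muscle cells in the class was not tested. Col4a1 ran from 397 to 1064 CPM in the 6 myofibroblast sums (644 ± 251 CPM, SD, n = 6) and from 80.9 to 154 CPM, median 130 CPM, in the 6 fibroblast sums (125 ± 25.5 CPM, n = 6). The ranges did not overlap, and in each of the 6 libraries the myofibroblasts were higher. Col4a2 was at 243 to 557 CPM in myofibroblasts and at 43.8 to 97.1 CPM in fibroblasts, again without overlap. By edgeR's quasi-likelihood test with library as a block and Benjamini-Hochberg adjustment over all genes tested, Col4a1 was higher in myofibroblasts by 2.30 ± 0.20 on the log2 scale (SE, adjusted p = 5.4e-07) and Col4a2 by 2.56 ± 0.18 (adjusted p = 6.2e-08). Of the 10 members, 6 passed an adjusted p of 0.05 in this comparison, 3 higher and 3 lower, against 17.9% of the 10054 genes tested (9.99% higher and 7.9% lower). At least 1 Col4a1 UMI was seen in a mean of 79.2% of myofibroblasts, 28.3% of fibroblasts and 1.66% of NK and T cells, whose median UMI counts per cell were 3754, 2209 and 1364. With cells thinned to 2000 UMIs these shares were 68.1%, 21.5% and 1.02%. The thinning left out 2109 fibroblasts, 272 myofibroblasts and 261 NK and T cells that were shallower.

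**Figure D1:**
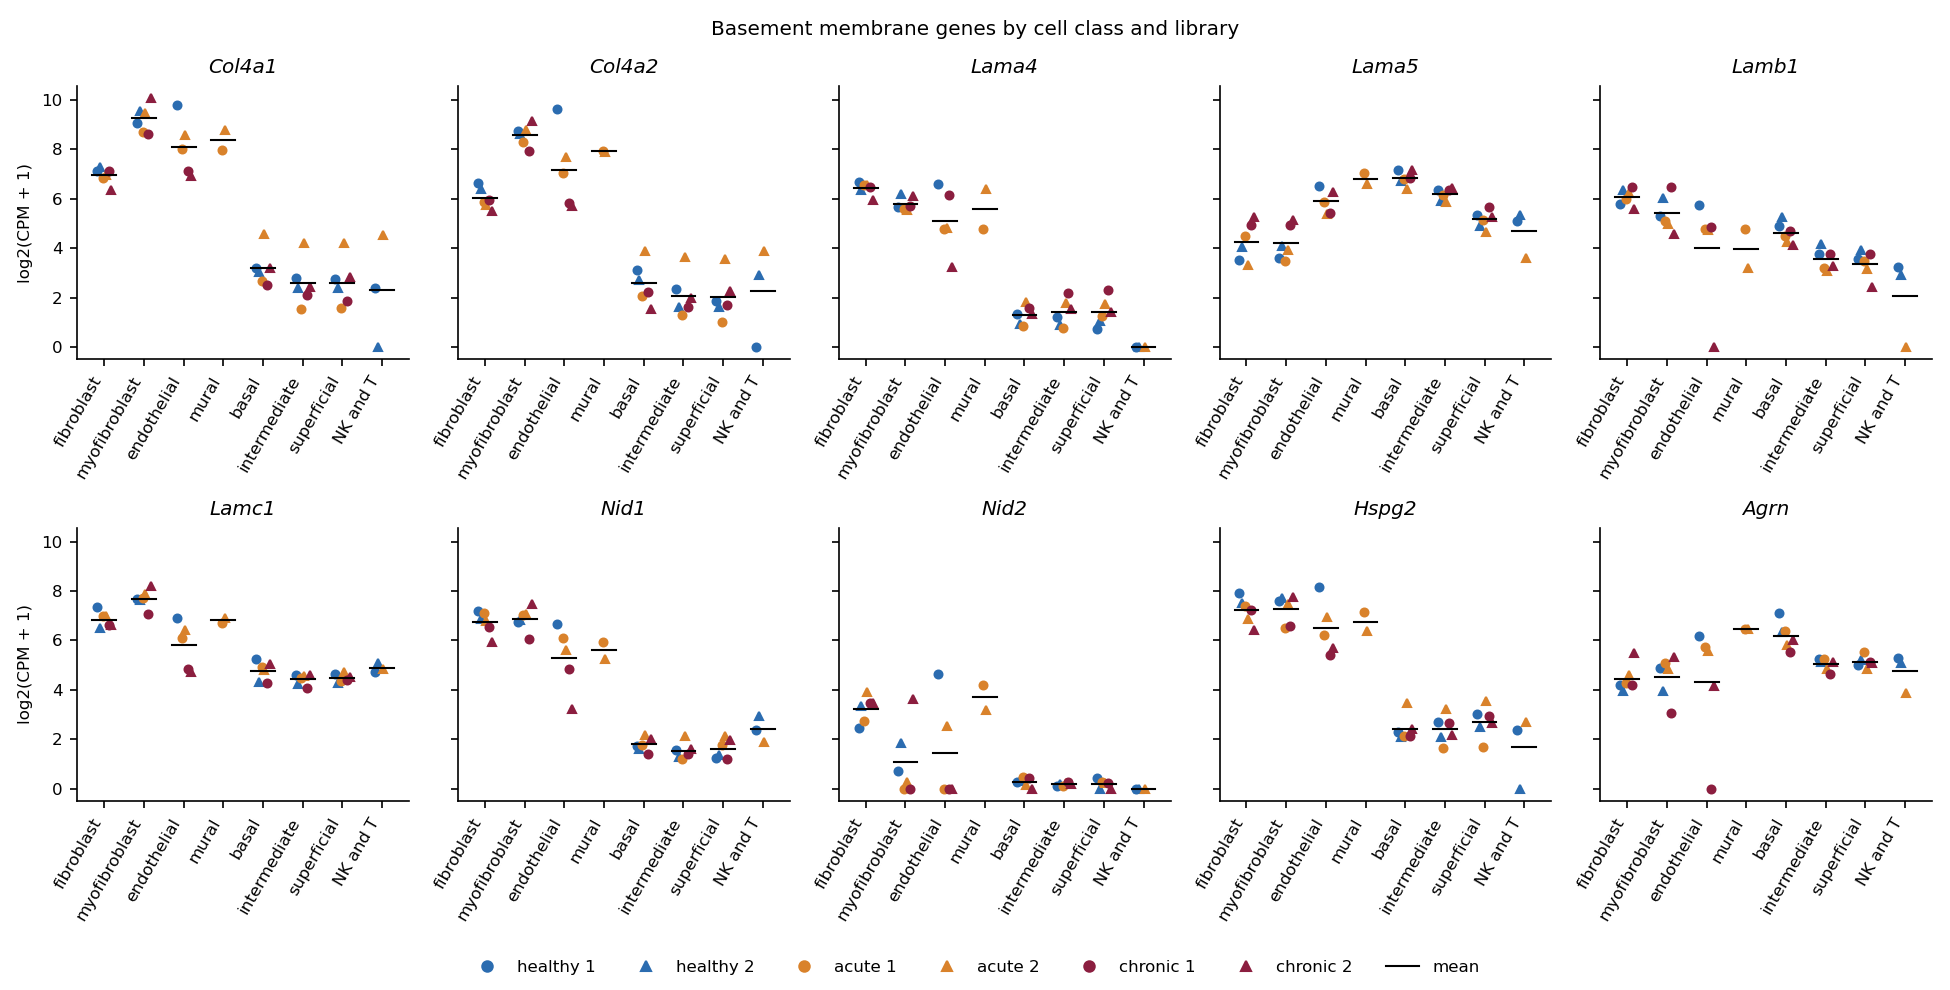
Level of each member as log2(CPM + 1), vertical axis, in 8 cell classes, horizontal axis. Each point is 1 library's sum over the cells of a class, coloured by condition and shaped by replicate, and bars are means of the plotted values. The means of Col4a1 and Col4a2 are highest in myofibroblasts, while the highest single Col4a2 value is endothelial (healthy replicate 1, 794 CPM), Lama5 averages 115 CPM in basal and 113 CPM in mural cells, and Lama4, Nid1 and Hspg2 average at most 6.09 CPM in basal, intermediate and superficial cells.

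Stromal cells left unnamed held Col4a1 at 128 to 580 CPM (372 ± 172 CPM, n = 6), against means of 357 ± 314 CPM (n = 5) in endothelium and 348 ± 135 CPM (n = 2) in mural cells. In endothelial cells Col4a1 was at 886 CPM in healthy replicate 1, 258 and 384 CPM in acute replicates 1 and 2, and 139 and 119 CPM in chronic replicates 1 and 2. These 5 values overlapped the range of the fibroblasts. In healthy replicate 1 the endothelium was also above the myofibroblasts for Col4a1 (886 against 536 CPM) and Col4a2 (794 against 429 CPM), and the difference between those classes was not tested. Col4a1 was nevertheless higher in endothelium than in the fibroblasts of the same library in 5 of 5 libraries (log2 difference 1.40 ± 0.30, edgeR adjusted p = 0.0024), a call that was lost when libraries were clustered without integration (0.87, adjusted p = 0.090). Col4a2 was higher by 1.70 ± 0.35 (4 of 5 libraries, edgeR adjusted p = 0.0021). In this comparison 7 of the 9 members tested passed, 3 higher and 4 lower, against 35.6% of 6129 genes (20.4% higher and 15.2% lower). Nid2 was too low to be tested. In the 2 acute libraries mural cells held Col4a1 at 253 and 443 CPM and Col4a2 at 244 and 238 CPM, against 113 and 123 CPM and 56.9 and 52.9 CPM in their fibroblasts, so neither gene's values overlapped. By edgeR they were higher by 1.498 ± 0.37 (adjusted p = 0.0061) and 2.102 ± 0.36 (adjusted p = 0.00017), in a fit with 1 residual degree of freedom among 4 sums. Of the 10 members 6 passed there, 4 higher and 2 lower, against 13.2% of 8051 genes (6.84% higher and 6.32% lower), but DESeq2 on the same sums called 2 of the 10, Col4a2 and Lama5, and 5.34% of all genes. For Col4a1, Lamb1, Nid1 and Agrn the log2 differences by DESeq2 were 1.49, -2.21, -1.40 and 2.03 with adjusted p of 0.12, 0.31, 0.44 and 0.13.

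Laminin alpha chains decide which cells and receptors a laminin reaches, and the pair studied here differed in the classes that held them. Lama4 (ENSMUSG00000019846, chr10:38965515-39110188, plus strand), the alpha chain of vessel and stromal laminins, was at 60.7 to 101 CPM in fibroblasts (86.2 ± 14.1 CPM, n = 6) and at 46.0 to 72.6 CPM in myofibroblasts (55.7 ± 11.5 CPM, n = 6). It was lower in myofibroblasts than in fibroblasts (log2 difference -0.69 ± 0.16, 5 of 6 libraries lower, edgeR adjusted p = 0.0055). Without acute replicate 2 the difference was -0.58 and its adjusted p was 0.067. In endothelium Lama4 was at 96.2 CPM in healthy replicate 1, 26.3 and 27.5 CPM in the acute replicates and 69.4 and 8.47 CPM in the chronic ones, below the fibroblasts of the same library in 5 of 5 libraries (log2 difference -1.13 ± 0.31, edgeR adjusted p = 0.012). The difference was -0.998 without acute replicate 1 (edgeR adjusted p = 0.058) and -0.876 without acute replicate 2 (edgeR adjusted p = 0.092). Fibroblasts of healthy replicate 1 were at 101 CPM, near its endothelium, and the chronic endothelial sums held 5 and 1 UMIs of Lama4. The part of urothelial RNA in the endothelial difference was not tested. The mural sums had 26.2 and 82.1 CPM, and their difference from fibroblasts did not pass (adjusted p = 0.42). In basal urothelial cells Lama4 did not exceed 2.57 CPM in any library, lower than in fibroblasts (log2 difference -5.84 ± 0.23, edgeR adjusted p = 7.5e-09).

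Lama5 (ENSMUSG00000015647, chr2:180176373-180225859, minus strand), the alpha chain of epithelial and arterial laminins, was at 82.0 to 141 CPM in basal cells (115 ± 22.8 CPM, n = 6), at 56.7 to 85.8 CPM in intermediate cells (72.5 ± 12.5 CPM) and at 24.4 to 49.6 CPM in superficial cells (35.7 ± 8.85 CPM). The level thus stepped down from the layer on the membrane to the lumen, with basal and intermediate cells overlapping in range and superficial cells below both. Superficial values overlapped those of NK and T cells (11.0 to 39.5 CPM), and the difference between intermediate and superficial cells was not tested. Within a library basal cells were above intermediate cells in 6 of 6 libraries, by 0.61 ± 0.05 on the log2 scale (edgeR adjusted p = 7.9e-09). Fibroblasts and myofibroblasts stood at 20.6 ± 11.1 CPM and 19.1 ± 9.98 CPM (n = 6 each). Basal cells were higher than fibroblasts by 2.62 ± 0.22 (edgeR adjusted p = 2.0e-06, 6 of 6 libraries, ranges not overlapping).

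Mural and endothelial cells also carried Lama5. The mural sums held 131 and 94.4 CPM in acute replicates 1 and 2 against 21.6 and 9.07 CPM in fibroblasts of the same libraries, 2.96 ± 0.49 higher on the log2 scale (edgeR adjusted p = 9.7e-05). Urothelial RNA differed between these 2 sums. Krt5 was at 49.3% of its basal level in mural cells of acute replicate 1 and at 4.30% in those of acute replicate 2, and the basal level of Lama5 taken at those percentages would be 53.6 and 3.52 CPM. Lama5 was thus 2.44 and 26.8 times that level. Scaled by the uroplakins instead, which were at 27.3% and 16.3% of their urothelial level, it was 6.74 and 10.03 times the level given by that percentage. In endothelium Lama5 was at 91.4 CPM in healthy replicate 1, 57.9 and 40.5 CPM in the acute replicates and 41.7 and 76.2 CPM in the chronic ones, above fibroblasts in 5 of 5 libraries (1.83 ± 0.35, edgeR adjusted p = 0.00099). Scaled in the same way by Krt5, these were 5.40, 2.02, 5.62, 1.22 and 2.20 times the level that the Krt5 percentage would give, and scaled by uroplakins 8.82, 3.21, 3.02, 1.29 and 1.16 times. The part of urothelial RNA in the endothelial difference was not tested.

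**Figure D2:**
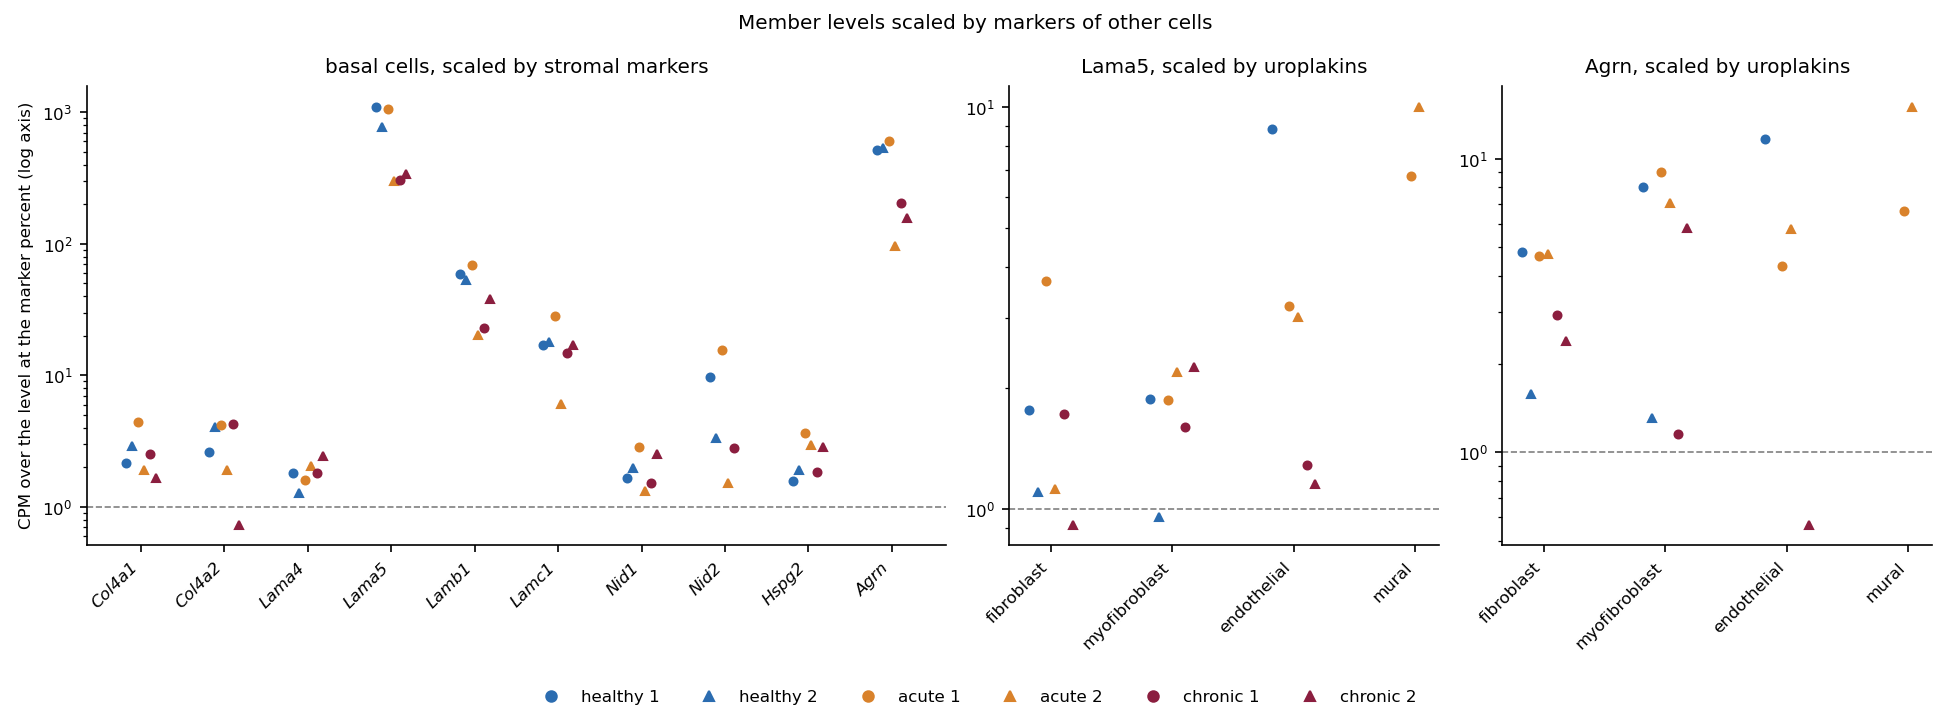
Vertical axes, on log scales, give a member's CPM over the level it would have at the marker percentage of that class and library, where a dashed line marks a ratio of 1. The left panel shows the 10 members in basal cells, scaled by the stromal markers Dcn, Col1a1 and Col3a1, and the others show Lama5 and Agrn in 4 classes, scaled by the uroplakins Upk1a, Upk2 and Upk3a; each point is 1 library and ratios of 0 are not drawn. In basal cells Lama5 stands at ratios of 300 or more and Agrn at 97.1 or more, while Col4a1 lies between 1.65 and 4.46.

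The alpha chains were also compared as a share of UMIs within a library, which does not depend on scaling. Lama4 made up 80.6 ± 10.9% of the Lama4 and Lama5 UMIs of fibroblasts (62.1% to 91.0%, n = 6), 75.4 ± 8.28% in myofibroblasts (63.6% to 82.1%), 39.1 ± 20.04% in endothelium (10.0% to 62.5%, n = 5) and 1.42 ± 0.87% in basal cells (0.733% to 3.03%, n = 6). The 2 mural sums had 16.7% and 46.5%. These vessel shares rest on few UMIs. The lowest endothelial one, in chronic replicate 2, came from 1 Lama4 and 9 Lama5 UMIs (exact 95% interval 0.253% to 44.5%), the highest, in chronic replicate 1, from 5 and 3 (24.5% to 91.5%), and the lower mural one from 3 and 15 (3.58% to 41.4%). Krt5 was at 24.6% and 30.5% of its basal level in those endothelial sums and at 49.3% in that mural sum, and the part of urothelial Lama5 in these shares was not tested. Fibroblasts exceeded basal cells by 79.2 percentage points on average, in 6 of 6 libraries, and endothelial cells by 40.8 points, in 5 of 5. An exact two-sided sign-flip permutation test over 6 libraries cannot give a p below 0.03125, which is what the first of these gave. After adjustment over the 8 pairs of classes compared the smallest p of these permutation tests was 0.083. Pairs with endothelial or mural cells had only 5 or 2 libraries, so no pair could pass 0.05 after adjustment and these tests decide nothing. The share is one of captured 3′ ends and not of protein.

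**Figure D3:**
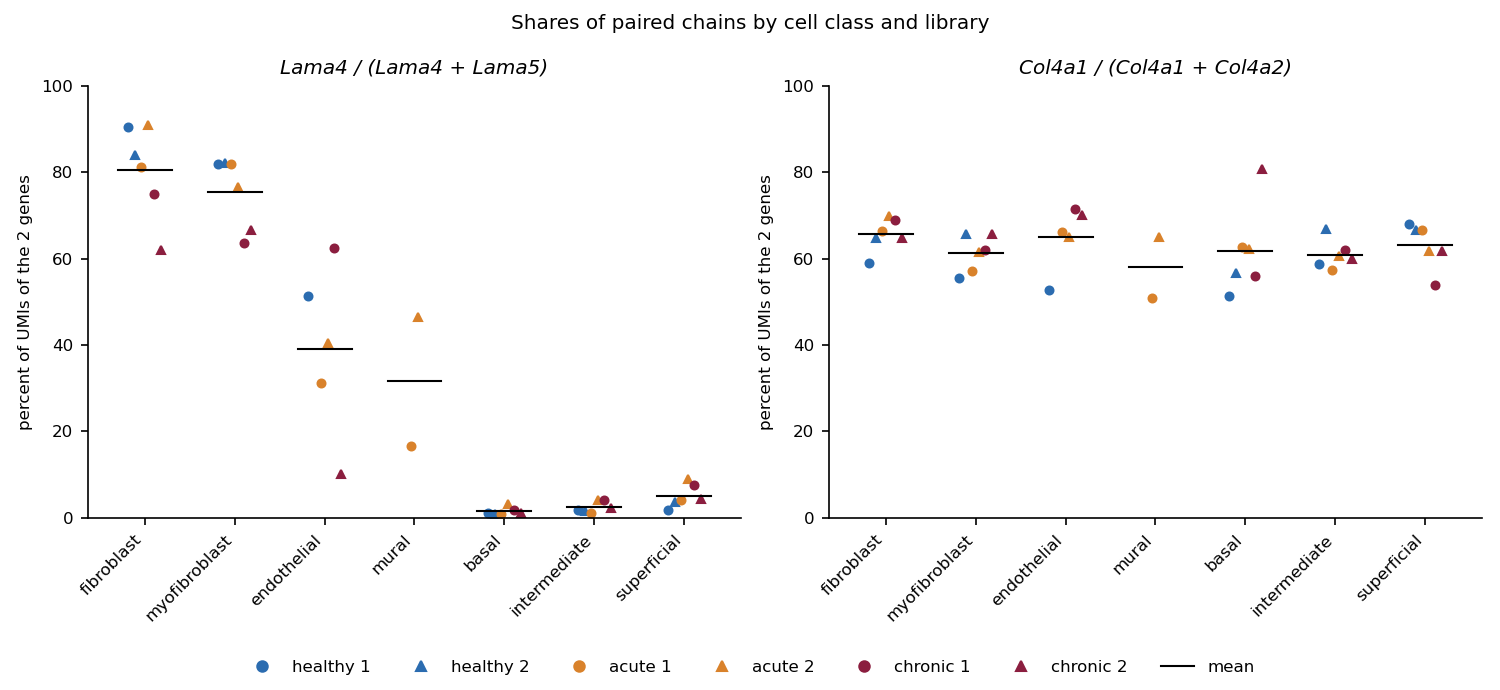
Percent of the UMIs of a gene pair that belong to Lama4 (left) or Col4a1 (right), by cell class, with 1 point per library and a bar at the mean. The left panel falls from 80.6% in fibroblasts to 1.42% in basal cells, while the right panel stays between 57.9% and 65.7% on average in all 7 classes.

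Between the collagen IV chains, Col4a1 was 65.7 ± 3.92% of the Col4a1 and Col4a2 UMIs in fibroblasts, 61.3 ± 4.20% in myofibroblasts, 65.1 ± 7.39% in endothelium, 58.0 ± 10.0% in mural cells (n = 2) and 61.7 ± 10.3% in basal cells. The mean differences over the 8 pairs of classes compared ran from -4.68 to 10.3 percentage points, with adjusted p from 0.50 to 0.94 in exact permutation tests. The smallest p that 6 libraries allow is 0.03125 before adjustment, so adjusted over 8 pairs these tests could not pass and say nothing of how stable the share was.

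Lamb1 (ENSMUSG00000002900, chr12:31265234-31329644, plus strand) and Lamc1 (ENSMUSG00000026478, chr1:153218922-153332786, minus strand) encode the beta and gamma chains that most laminins share, and they differed from fibroblasts in opposite directions in myofibroblasts but not in endothelium or basal cells. Lamc1 was at 132 to 293 CPM in myofibroblasts and at 88.8 to 161 CPM in fibroblasts, higher in myofibroblasts in 6 of 6 libraries by 0.88 ± 0.15 on the log2 scale (edgeR adjusted p = 0.00043). Lamb1 was at 22.5 to 88.2 CPM and 47.2 to 86.9 CPM, lower in myofibroblasts in 5 of 6 libraries (log2 difference -0.66 ± 0.17, edgeR adjusted p = 0.0099). Without acute replicate 2, which held 2666 of the 3841 myofibroblasts, the Lamb1 difference was -0.43 with an adjusted p of 0.14. Endothelium had less of both than fibroblasts, in 5 of 5 libraries each (log2 difference -1.21 ± 0.35 for Lamb1, edgeR adjusted p = 0.015, and -0.81 ± 0.23 for Lamc1, adjusted p = 0.014). Without acute replicate 2 the Lamb1 difference was -1.06 (edgeR adjusted p = 0.089), and without acute replicate 1 that of Lamc1 was -0.82 (edgeR adjusted p = 0.051). In healthy replicate 1 Lamb1 was at 52.9 CPM in endothelium and 54.9 CPM in fibroblasts. The chronic endothelial sums held 2 and 0 UMIs of Lamb1 and 2 and 3 of Lamc1. Uroplakins in endothelial sums were at 12.0% to 75.9% of their urothelial level, and the part of urothelial RNA in these differences was not tested. In mural cells Lamb1 was at 26.2 and 8.21 CPM, lower than in fibroblasts (log2 difference -2.255 ± 0.66, edgeR adjusted p = 0.022, DESeq2 adjusted p = 0.31), and these sums held 3 and 2 UMIs of it. Mural Lamc1 was at 105 and 119 CPM and did not pass (adjusted p = 0.86).

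Nidogens link laminin to collagen IV. Nid1 (ENSMUSG00000005397, chr13:13437551-13512269, plus strand) was at 60.7 to 145 CPM in fibroblasts and 66.1 to 174 CPM in myofibroblasts, with no difference that passed (log2 difference 0.10 ± 0.18, edgeR adjusted p = 0.81). It was lower than in fibroblasts in endothelium (log2 difference -1.08 ± 0.24, 5 of 5 libraries, edgeR adjusted p = 0.0029) and in mural cells (-1.41 ± 0.44, 61.1 and 36.9 CPM, adjusted p = 0.032), the latter a call that DESeq2 did not make (adjusted p = 0.44). The chronic endothelial sums held 2 and 1 UMIs of Nid1, and the part of urothelial RNA in the endothelial difference was not tested. Nid2 (ENSMUSG00000021806, chr14:19751265-19811787, plus strand) did not exceed 24.1 CPM in any class and library. Fibroblasts held it at 4.57, 9.14, 5.61, 13.9, 10.1 and 10.1 CPM in healthy 1 and 2, acute 1 and 2 and chronic 1 and 2. Myofibroblasts held it at 0.655, 2.64, 0, 0.195, 0 and 11.3 CPM in the same order, and the last of these rested on 2 UMIs. It was lower in myofibroblasts in 5 of 6 libraries (log2 difference -3.91 ± 0.60, edgeR adjusted p = 0.00020), and without acute replicate 2 it fell below the filter on low counts.

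Perlecan and agrin, the proteoglycans, also differed in where they were found. Hspg2, which encodes perlecan (ENSMUSG00000028763, chr4:137468769-137570630, plus strand), was at 84.3 to 239 CPM in fibroblasts, 90.0 to 214 CPM in myofibroblasts and 41.7 to 284 CPM in endothelium. Neither myofibroblasts (log2 difference 0.10 ± 0.20, edgeR adjusted p = 0.83) nor endothelial cells (-0.41 ± 0.26, adjusted p = 0.24) differed from fibroblasts past the threshold. Basal cells held it at 3.25 to 10.2 CPM. Agrn (ENSMUSG00000041936, chr4:156165290-156197488, minus strand), which is also the organiser of the neuromuscular synapse, had its highest means in mural (86.7 CPM), cycling basal (77.5 CPM) and basal cells. It was at 44.8 to 137 CPM in basal cells (77.1 ± 32.7 CPM, n = 6), at 24.03 to 37.3 CPM in intermediate cells and at 14.7 to 43.8 CPM in fibroblasts. Mural cells had 87.2 and 86.2 CPM against 18.4 and 23.3 CPM in fibroblasts of the same libraries, higher by 2.00 ± 0.48 (edgeR adjusted p = 0.0049, DESeq2 adjusted p = 0.13), and 2.16 and 36.3 times the level their Krt5 percentage would give (6.66 and 15.04 times when scaled by uroplakins). In endothelium it was at 72.2, 52.7, 47.0, 0 and 16.9 CPM in healthy 1, acute 1 and 2 and chronic 1 and 2, and the difference from fibroblasts did not pass (edgeR adjusted p = 0.070). The 0 of chronic replicate 1 comes from 27 cells and allows up to 41.7 CPM.

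The stroma could be resolved further, into fibroblasts marked by Pi16 and Mfap5, by Has1, Scara5 and Bglap2, or by Inmt, Sct and Ass1, and into contractile and less contractile myofibroblasts. The last 2 names are relative, since Acta2, Tagln, Cnn1 and Myl9 were also among the top genes of a less contractile cluster. Over these 5 sub-types, 5 of the 9 members tested differed by edgeR's quasi-likelihood F test with library as a block, against 34.5% of 9031 genes: Col4a1, Col4a2, Lama4, Lamb1 and Lamc1. Col4a1 was at 722 ± 282 CPM in contractile myofibroblasts (n = 6), 478 ± 137 CPM in less contractile ones (n = 3) and 134 ± 21.0, 127 ± 34.4 and 106 ± 17.2 CPM in the Pi16, Has1 and Inmt fibroblasts (n = 5, 6 and 5). The 2 myofibroblast sub-types overlapped in range, the 3 fibroblast sub-types overlapped with one another, and no myofibroblast sum reached down to a fibroblast one. The fitted range from the lowest to the highest sub-type was 2.79 on the log2 scale for Col4a1 (adjusted p = 1.9e-13) and 3.21 for Col4a2 (adjusted p = 3.3e-14).

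Among these sub-types Lama4 and Lamb1 ran the other way. Lama4 was at 101 ± 16.0 CPM in Pi16 fibroblasts and at 56.5 ± 14.0 CPM in contractile myofibroblasts, which did not overlap (77.7 to 117 CPM against 42.9 to 76.7 CPM), with the Has1 sub-type at 86.3 ± 19.7 and the Inmt sub-type at 62.6 ± 19.97 CPM between them (fitted range 0.90, edgeR adjusted p = 0.00028). Lamb1 was at 81.7 ± 15.1 CPM in Pi16 fibroblasts and 37.9 ± 15.8 CPM in contractile myofibroblasts (fitted range 1.07, edgeR adjusted p = 0.00013). Lamc1 followed the collagen IV pair, from 96.9 ± 52.3 CPM in Inmt fibroblasts to 214 ± 72.6 CPM in contractile myofibroblasts (fitted range 1.08, edgeR adjusted p = 0.00012). Nid1 was at 135 ± 22.4 CPM in Pi16 and 77.7 ± 16.3 CPM in Inmt fibroblasts and narrowly missed the threshold (edgeR adjusted p = 0.054). For Hspg2, Lama5 and Agrn the edgeR adjusted p was 0.20, 0.10 and 0.20. Stromal cells left unnamed were not among the sub-types. They held Lama4 at 87.7 ± 30.8, Lamb1 at 52.3 ± 21.2 and Lamc1 at 217 ± 72.4 CPM (n = 6 each), beside Col4a1 at 372 CPM.

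**Figure D4:**
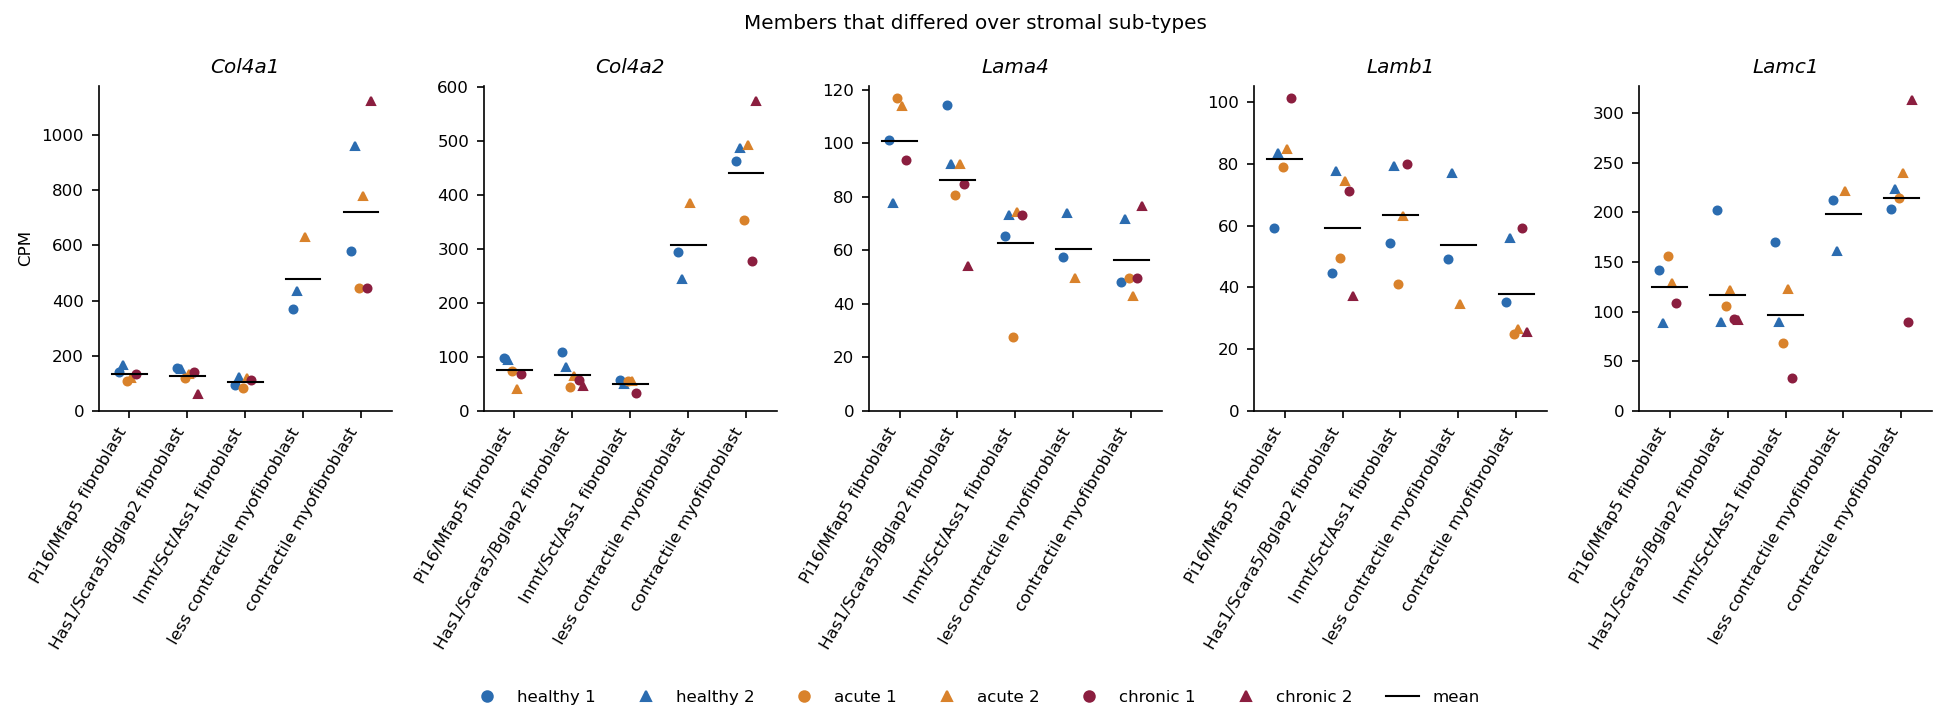
CPM, on linear axes from 0, of the 5 members that differed over stromal sub-types, with 1 point per library that had at least 20 cells of the sub-type and a bar at the mean. Col4a1, Col4a2 and Lamc1 are highest in contractile myofibroblasts (722, 442 and 214 CPM on average), Lama4 and Lamb1 in Pi16 fibroblasts (101 and 81.7 CPM).

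The urothelium carried a smaller set of these transcripts. Of 9 members tested between basal and intermediate cells 6 passed, all higher in basal cells, against 24.5% of 12043 genes that were higher and 46.8% in either direction. All genes together gave 2951 higher and 2683 lower calls, and 3716 and 2117 when scaled by plain library totals. The largest were Agrn, higher by 1.16 ± 0.09 on the log2 scale (6 of 6 libraries, ranges not overlapping, edgeR adjusted p = 1.1e-08), and Lamb1, higher by 1.10 ± 0.08 (16.6 to 37.8 CPM against 7.55 to 16.9 CPM, 6 of 6 libraries, adjusted p = 1.3e-09). Lamc1 was higher by 0.31 ± 0.08 in 6 of 6 libraries (edgeR adjusted p = 0.0025), at levels that NK and T cells also had. Col4a1 and Col4a2 were higher by 0.58 ± 0.12 and 0.59 ± 0.18 (edgeR adjusted p = 0.00071 and 0.011), at levels of 4.72 to 23.0 CPM and 1.94 to 14.0 CPM in basal cells. Without healthy replicate 2 the Col4a2 difference was 0.42 with an adjusted p of 0.069.

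Those low levels were set against stromal RNA in the same droplets. Dcn, Col1a1 and Col3a1 summed to 118 to 489 CPM in basal cells, and each member's level was divided by the level it would have at the proportion to these markers found in the stroma of the same library (fibroblasts, myofibroblasts and unnamed stromal cells together). For Col4a1 this ratio ran from 1.65 to 4.46 with a median of 2.35. The medians were 3.36 for Col4a2, 1.81 for Lama4, 1.82 for Nid1 and 2.38 for Hspg2. For Lama5, Agrn, Lamb1 and Lamc1 they were 555, 359, 45.6 and 17.1. In acute replicate 2, where the stromal markers in basal cells were highest at 489 CPM, Col4a1 (23.0 CPM) and Hspg2 (10.2 CPM) were also highest. The part of stromal RNA in the Col4a1 and Col4a2 differences between urothelial layers was not tested.

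Set directly against fibroblasts, basal cells differed in all 10 members, 2 higher and 8 lower, where 66.4% of 10939 genes were called (34.1% higher and 32.3% lower). Lama5 and Agrn were the higher ones, Agrn by 1.83 ± 0.25 on the log2 scale (edgeR adjusted p = 8.0e-05). The log2 difference was -5.48 ± 0.22 for Nid1, -5.32 ± 0.40 for Nid2, -5.09 ± 0.34 for Hspg2, -3.90 ± 0.30 for Col4a1 and -3.54 ± 0.31 for Col4a2. For Lamc1 and Lamb1 it was -2.19 ± 0.13 and -1.53 ± 0.15 (edgeR adjusted p from 9.9e-09 to 7.2e-06 for these 7). The 6 basal and the 6 fibroblast sums did not overlap for any of the 10 members, 2 higher and 8 lower in basal cells, where 10.6% and 15.1% of all genes tested were so placed.

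Over the 64 sums of class and library the members fell into groups by likeness, given as Pearson's r of log2 CPM as a description only, since sums of 1 library share its mice and depth. The genes most like Col4a1, of 9029 genes with a mean of at least 10 CPM, were Col4a2 (r = 0.94), Snai1 (0.93), Hspg2 (0.92), Ppic (0.92) and Calcrl (0.92). Lama5 was most like Cd24a (0.87), Plxnb1, Pcdh1, Ppp2r2a and Zfand2a (0.85 to 0.86). Among the members, Nid1 stood at 0.91 to 0.93 with Col4a1, Col4a2, Lama4, Lamc1 and Hspg2, whereas Lama5 was at -0.14 to -0.52 with each of the 8 members other than Agrn and at 0.48 with Agrn.

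A wider list of 59 basement membrane components, receptors and assembly enzymes, 56 of which were in the tables, was tested in the same fits. It too was chosen with earlier results of these data known, so its counts are a description. In myofibroblasts 13 of 41 tested were higher and 6 lower than in fibroblasts, with a median log2 difference of 0.28 against -0.01 over all genes tested. Vwa1, a matrix protein that binds perlecan, was higher (2.32 ± 0.19) with Egflam, which encodes pikachurin (2.19 ± 0.25), and Col15a1, a collagen of the zone beneath the basement membrane, was lower (-2.22 ± 0.32) with the fibulin Fbln1 (-1.69 ± 0.19, all edgeR adjusted p at most 9.3e-05). Of the 12 genes listed for assembly, which except for the carboxylase Ggcx act in collagen folding, modification, crosslinking or secretion, 5 were higher in myofibroblasts and none was lower, where 9.99% and 7.9% of all genes tested were higher and lower. In endothelium 7 of 29 were higher and 14 lower (20.4% and 15.2% of all genes, and a median of -0.63 against 0.08), with the laminin receptor Bcam higher by 4.22 ± 0.32 and Tinagl1 by 4.09 ± 0.27, and Fbln1 (-4.745 ± 0.24) and the collagen receptor Ddr2 (-4.34 ± 0.40) lower. In mural cells 9 of 38 were higher and 8 lower (6.84% and 6.32% of all genes, and a median of -0.08 against -0.03). The muscle laminin receptor Itga7 was at 109 CPM there against 0.552 CPM in fibroblasts, Fbln5 at 4.36 against 251 CPM and Col15a1 at 2.05 against 139 CPM. Ntn1 had no UMI in either mural sum, which allows 8.37 CPM over both, against 49.4 CPM in fibroblasts.

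In basal cells 20 of 44 were higher than in intermediate cells and 4 lower (median 0.26 against 0.01 over all genes), where 24.5% and 22.3% of all genes were. Of 11 receptors tested 7 were higher and none lower, and of 24 components 11 were higher and 2 lower. The hemidesmosome collagen Col17a1 was at 57.8 against 6.43 CPM (log2 difference 3.10 ± 0.10), the integrin ligand Npnt at 15.3 against 3.83 CPM, the laminin-binding integrin chain Itga3 at 104 against 30.8 CPM and Bcam at 191 against 62.6 CPM (all edgeR adjusted p at most 1.2e-09). Against fibroblasts 15 of 45 were higher and 27 lower in basal cells (34.1% and 32.3% of all genes, and a median of -1.07 against 0.04), led by Col15a1, Fbln1, Fbln2 and Ntn1, whose differences ran from -6.59 to -5.65. Over the stromal sub-types 32 of 42 differed, where 34.5% of all genes did. Of these Hmcn1, at 14.2 CPM in myofibroblasts and 0.214 CPM in fibroblasts, had the widest fitted range, 7.07 on the log2 scale.

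Injury was compared within each class, acute and chronic each against the same healthy libraries, so their differences from healthy are not independent of each other. In fibroblasts, myofibroblasts and basal cells no member was called in either injury by edgeR, where 0.00901% of 11100 genes were called in acute fibroblasts, 0.00901% in chronic fibroblasts, 0.0413% and 0.0138% of 7268 in acute and chronic myofibroblasts and 0% of 11262 in acute and chronic basal cells. DESeq2 also called none of the members in these 6 comparisons, and none of the wider list was called in any of them by edgeR. Unadjusted edgeR p-values under 0.05 were found for 1 of 10 members in chronic fibroblasts (7.03% of all genes tested), 1 of 8 in acute basal cells (2.42%) and 1 of 8 in chronic basal cells (5.24%), and for none in acute fibroblasts or in myofibroblasts. With 2 libraries a group in the chronic fibroblast comparison, 32.1% of 200 genes changed 4-fold in simulated counts over 10836 genes were recovered, beside 8 false calls.

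**Figure D5:**
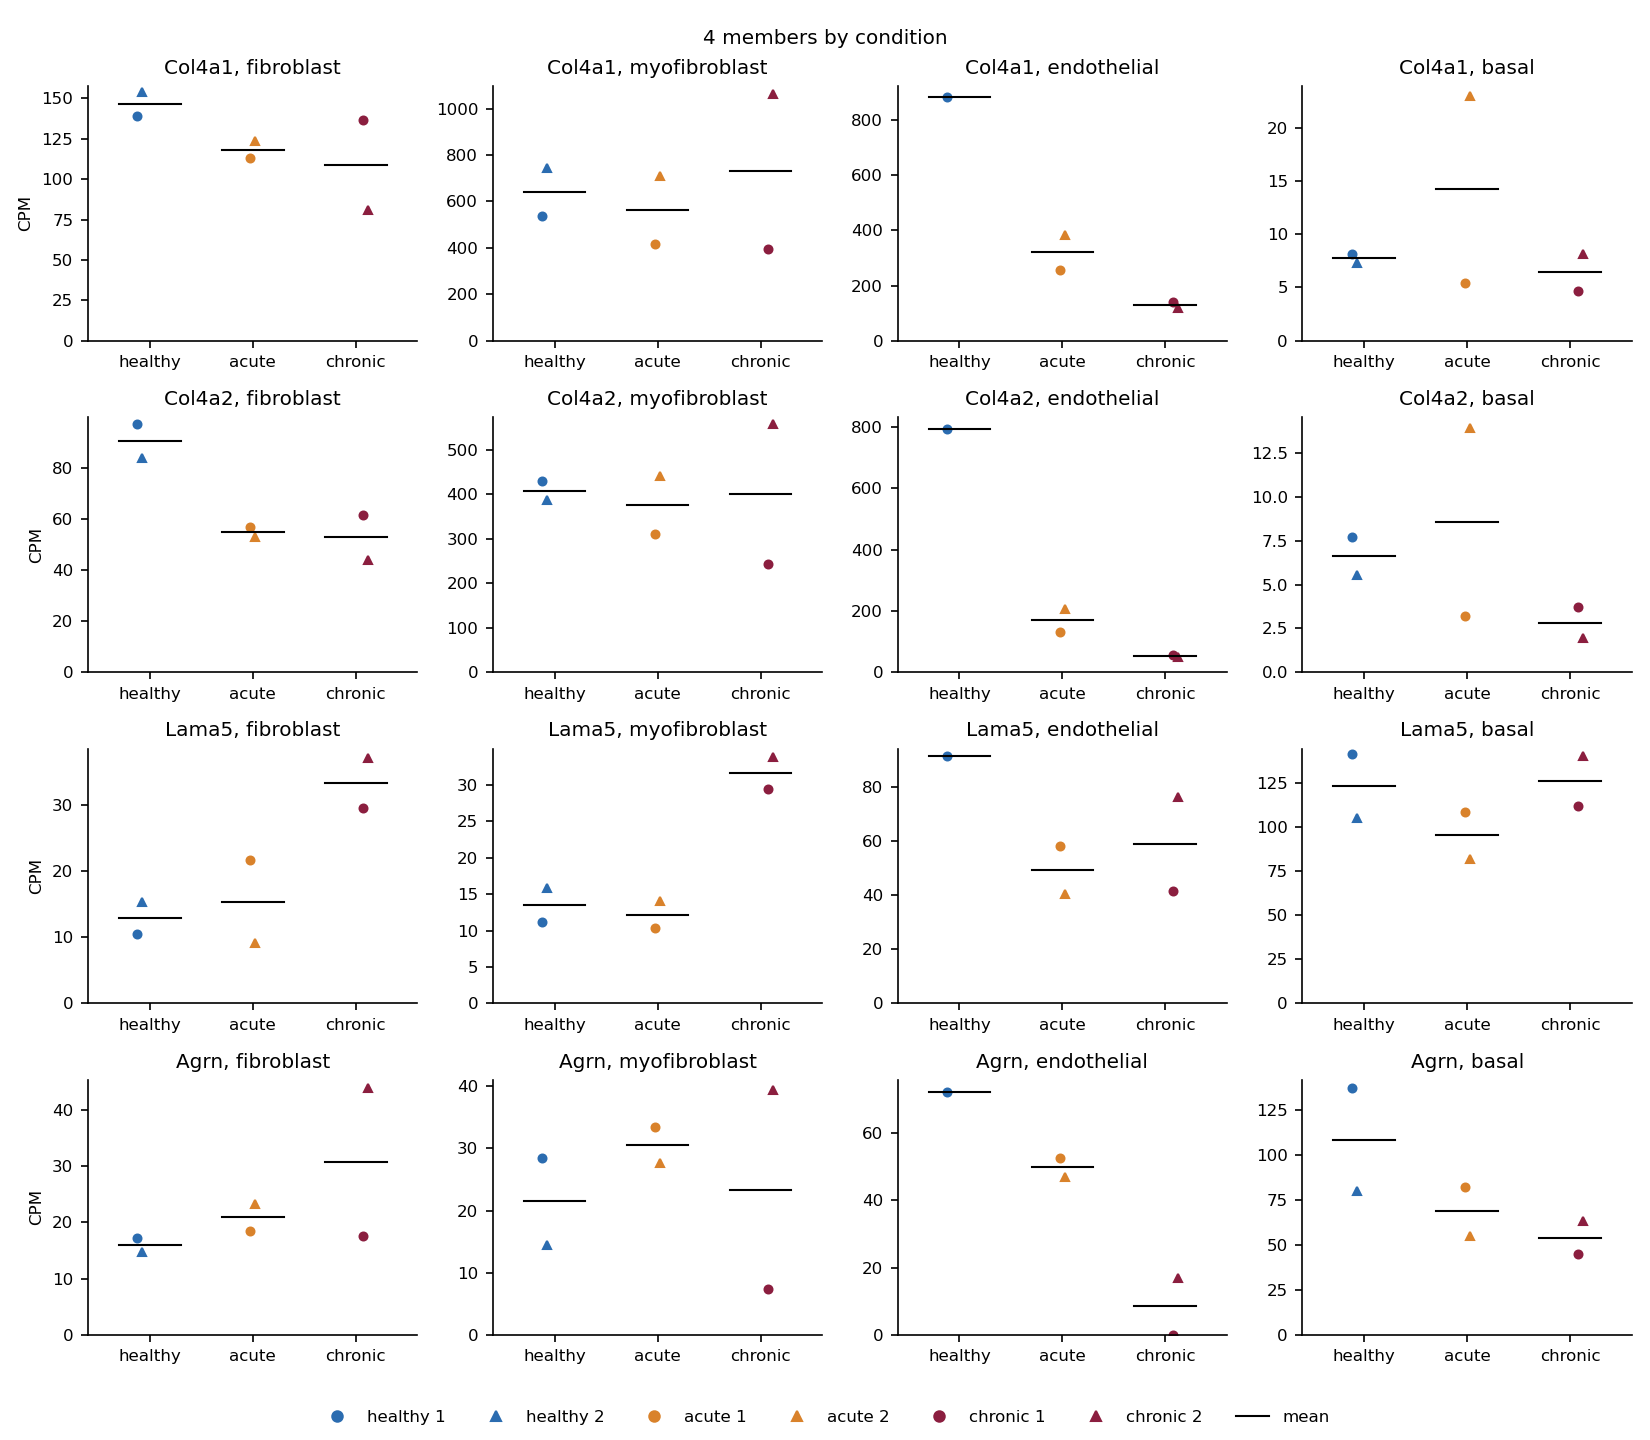
CPM of Col4a1, Col4a2, Lama5 and Agrn (rows) by condition in fibroblasts, myofibroblasts, endothelial cells and basal cells (columns), on linear axes from 0 that differ between panels. Each point is 1 library and bars are means, except healthy endothelium, which has 1 library. Endothelial Col4a1 goes from 886 CPM in healthy replicate 1 to 139 and 119 CPM in the chronic libraries, while the Col4a1 values of myofibroblasts overlap between conditions.

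No member passed in fibroblasts. Col4a2 was at 97.1 and 83.9 CPM in healthy, 56.9 and 52.9 CPM in acute and 61.6 and 43.8 CPM in chronic libraries, so that both injuries lay below both healthy values (adjusted p = 1.0 and 0.71 by edgeR). Hspg2 was at 239 and 180 CPM, then 165 and 116 CPM, then 148 and 84.3 CPM. The acute and chronic values of both genes overlapped. In acute fibroblasts 1 of 10 members lay above and 3 below the healthy values without overlap, where 15.6% and 15.7% of 11100 genes did. In chronic fibroblasts 3 lay above and 4 below, where 21.7% and 19% did, and the 2 chronic fibroblast libraries include the one that stood apart. Lama5 was the member with the smallest unadjusted p there, at 10.5 and 15.3 CPM in healthy, 21.6 and 9.07 CPM in acute and 29.6 and 37.1 CPM in chronic libraries (log2 difference 1.24 ± 0.48, edgeR adjusted p = 0.69). At the Krt5 percentage of these sums the basal level of Lama5 would be 4.996 and 8.08 CPM in healthy and 7.88 and 49.5 CPM in chronic libraries, the last of them above what was measured. Scaled by uroplakins, Lama5 was 1.76 and 1.10 times the level their percentage would give in healthy and 1.725 and 0.917 times in chronic libraries. The part of urothelial RNA in this difference was not tested.

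In myofibroblasts the Col4a1 values of the 3 conditions overlapped. Col4a1 was at 536 and 744 CPM in healthy, 417 and 708 CPM in acute and 397 and 1064 CPM in chronic libraries, the last pair from 56 and 53 cells. Without overlap with healthy, 2 of the 9 members tested lay higher and 3 lower in acute myofibroblasts, where 15% and 18% of 7268 genes did, and 1 lay higher and 0 lower in chronic ones, where 16.9% and 17.3% did. The higher one was Lama5, at 11.1 and 15.8 CPM in healthy and 29.4 and 33.8 CPM in chronic myofibroblasts (edgeR adjusted p = 0.83). Krt5 in these sums was at 58.6 and 110 CPM in healthy and 95.5 and 231 CPM in chronic libraries, and Lama5 was 1.35 and 1.68, then 3.62 and 1.32 times the level that its Krt5 percentage would give. Scaled by uroplakins, Lama5 was 1.88 and 0.959, then 1.60 and 2.26 times the level given by their percentage. The part of urothelial RNA in this difference was not tested. In basal cells Agrn was at 137 and 79.9 CPM in healthy, 82.1 and 55.2 CPM in acute and 44.8 and 63.3 CPM in chronic libraries (chronic against healthy -0.97 ± 0.31, unadjusted p = 0.015 and adjusted p = 0.81 by edgeR). Lamb1 in basal cells was at 29.0 and 37.8 CPM in healthy, 21.5 and 18.1 CPM in acute and 24.6 and 16.6 CPM in chronic libraries, below the healthy range in both injuries, again without passing (adjusted p = 1.0 and 0.90). Lama5 in basal cells was at 141 and 105, 109 and 82.0, and 112 and 140 CPM, so that chronic and healthy overlapped. Of the 8 members tested in basal cells, 1 lay higher and 1 lower than healthy without overlap in acute injury, where 11.6% and 16.4% of 11262 genes did, and 0 lay higher and 3 lower in chronic injury, where 13.7% and 18.1% did.

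The endothelium was the class where members were called. Col4a1, at 886 CPM in healthy replicate 1 and 139 and 119 CPM in the chronic libraries, was lower in chronic injury (log2 difference -2.74 ± 0.52, edgeR adjusted p = 0.034), as was Col4a2, at 794 against 55.5 and 50.8 CPM (-3.85 ± 0.58, adjusted p = 0.0076). Without chronic replicate 1 the differences were -2.85 and -3.91 (adjusted p = 0.17 and 0.15), and without chronic replicate 2 they were -2.60 and -3.76 (adjusted p = 0.29 and 0.15), so neither gene passed. With 1 healthy library, the spread behind these p-values came from the acute and chronic libraries, and the healthy one was assumed to vary like them. These were 2 of 9 members tested, where 0.452% of 5314 genes were called (0.226% lower), and DESeq2 called 2 as well, with 1.11% of all genes. In acute injury none of 9 passed by edgeR or DESeq2 (4 had an unadjusted edgeR p under 0.05, as had 3.09% of all genes tested), with Col4a1 at 258 and 384 CPM and Col4a2 at 132 and 206 CPM, and 0.113% of genes were called (0.0376% higher and 0.0753% lower). All 9 members tested lay below the 1 healthy value in both acute and in both chronic libraries, where 36.4% and 38.5% of all genes tested did (29.5% and 31.6% lay above it).

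That contrast had 1 healthy library of 51 cells and chronic libraries of 27 and 26 cells, with 10 and 14 UMIs of Col4a1 and 4 and 6 of Col4a2. With sums of at least 10 cells, which let in the 15 endothelial cells of healthy replicate 2, no member was called. The log2 differences there were -2.33 for Col4a1 and -3.17 for Col4a2 (edgeR adjusted p = 0.20 and 0.24). The Col4a1 call was also lost with cells of over 1000 genes and under 5% mitochondrial UMIs, at -2.75, and without integration, at -2.78. Other markers moved with the contrast. Uroplakin RNA in endothelial sums was 886 CPM in healthy replicate 1, 1896 and 1444 CPM in acute and 4512 and 6091 CPM in chronic libraries, while the 5 endothelial markers summed to 4428, 2596, 3932, 2291 and 1161 CPM. Healthy replicate 1 also held the pericyte marker Rgs5 at 529 CPM against 16.9 to 41.7 CPM in the other libraries, Notch3 at 77.0 against 10.5 to 27.8 CPM, and hemoglobin RNA at 5193 CPM against 0 to 13.9 CPM. Per 100 UMIs of endothelial markers, Col4a1 was at 20 in healthy replicate 1, 16.5 in the 15 cells of healthy replicate 2, 9.94 and 9.76 in acute and 6.06 and 10.2 in chronic libraries. Both healthy values thus lay above the 4 injured ones. Col4a2 on that scale was at 17.9 and 4.96 in healthy, 5.07 and 5.23 in acute and 2.42 and 4.38 in chronic libraries, where the second healthy value lay among the injured ones. The part of urothelial, pericyte and blood RNA in the endothelial differences was not tested.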

How the data were processed

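UMI counts per gene and cell barcode were deposited by the authors as 1 table for each of the 6 libraries, made with Cell Ranger against mm10 per the submitters' processing notes. The tables held 54604109 to 111985678 UMIs, with 5530 to 9138 as the median per cell. Cells with more than 500 genes and at most 10% mitochondrial UMIs were kept. Scrublet scored the cells, and in each library the highest scores were called doublets, at a fixed rate of 0.8% for every 1000 cells. These doublets took part in the clustering and were left out of all sums. SCTransform and reciprocal PCA integration (Seurat 5.3.0, 3000 features, without the members and the wider list) were followed by Leiden clustering on 30 components (20 neighbours, resolution 0.8, scanpy 1.11.5), and clusters with over 33.3% doublets were left out. Classes were named from listed markers, but the score thresholds (a mean z of 0.5, or 1 for contractile and superficial cells) were set after the clusters were seen. Names rest on rebuilt clusters and may differ from those of the study.

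UMIs were summed per library and class with at least 20 cells and tested with edgeR 4.0.16 (TMM, filterByExpr, quasi-likelihood), with Benjamini-Hochberg adjustment over all genes tested. Classes were compared with library as a block and conditions without a block. Shares were compared with exact two-sided permutation tests. The procedure was tested on simulated data with 200 genes changed 4-fold. It recovered 32.1% in chronic fibroblasts, 100% in myofibroblasts against fibroblasts, 100% in basal against intermediate cells and 98% over stromal sub-types. False calls in the same order numbered 8, 11, 17 and 15. Alternatives were DESeq2 1.42.0, other scaling, no filter on low counts, stricter cells, doublets kept, no integration, sums of at least 10 cells, cycling cells kept, basal cells by sub-cluster, a replicate block and each library left out. The members and lists were chosen with earlier results of these data known. All members were named, and of the wider list the 4 genes with the largest difference among those past the threshold in each class comparison.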

Additional observations from a re-analysis of the deposited data

Results flagged for a closer look

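By the order of the library values alone, Agrn lay in opposite directions in chronic injury in fibroblasts and basal cells. Both chronic fibroblast sums (17.5 and 43.8 CPM) lay above both healthy ones (17.2 and 14.7 CPM), while both chronic basal sums (44.8 and 63.3 CPM) lay below both healthy ones (137 and 79.9 CPM). The fibroblast rise rested mostly on chronic replicate 2, since chronic replicate 1 (17.5 CPM) was next to healthy replicate 1 (17.2 CPM). The log2 fold changes, 0.63 in fibroblasts and -0.97 in basal cells, differed by 1.6. The difference itself was not tested, and neither change passed the threshold by edgeR (adjusted p = 0.84 and 0.81). Of 10277 genes tested in both classes, 2.92% moved in opposite directions without overlap. That share is for this pair of classes and this injury alone. The search covered the members in acute and chronic injury over each pair of fibroblasts, myofibroblasts and basal cells. Agrn here was its only hit, so many looks lay behind it. In chronic replicate 2, whose 78 fibroblasts held Krt5 at 35.3% of the basal level, Agrn in fibroblasts was 1.97 times the level that this percentage would give, and the part of urothelial RNA in it was not tested.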

How the results depend on the processing

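The count of members called in chronic endothelium, 2, was 1 with stricter cells, 1 without integration, 0 with sums of at least 10 cells and 0 to 3 when a library was left out (0 without chronic replicate 1 or chronic replicate 2, 3 without acute replicate 1 or acute replicate 2; without healthy replicate 1 it could not be fitted). Between myofibroblasts and fibroblasts 3 to 6 members were called when a library was left out, the 3 without acute replicate 2. In mural cells 2 were called by DESeq2 and 3 without integration, against 6. The other 198 of 206 recounts were equal or stayed within 1.5 times. These include recounts of 0 in comparisons where 0 members were called to begin with. Of 606 refits of called members 580 kept direction and side of the threshold and 26 lost the call, and of 1270 refits of members not called 83 changed sign and 18 passed. Some recounts and refits could not differ, since the library left out had not entered the fit. Such were the healthy and chronic libraries in the mural fit and healthy replicate 2 in the endothelial fits. The mural fit could not be made without either acute library. The difference in Col4a1 share changed sign with a library left out between fibroblasts and endothelium (-0.63 to 2.21 points), myofibroblasts and basal cells (-2.23 to 2.61), endothelium and basal cells (-0.80 to 5.78) and basal and intermediate cells (-3.34 to 2.90). The cause was not tested.

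Replicate numbers did not meet the rule for pairing in every pair of groups: same-numbered deviations correlated at 0.22 to 0.40 between healthy and acute in all 4 classes checked, but at -0.29 to -0.46 between chronic and either of them in basal and intermediate cells, and at -0.22 to 0.15 in stroma. Whether batches lie behind these was not tested. With a replicate block, the members called stayed at 0 in fibroblasts, myofibroblasts, basal cells and acute endothelium and at 2 in chronic endothelium, and genes called went from 24 to 36 in chronic endothelium, from 6 to 5 in acute endothelium and from 1 to 0 in chronic fibroblasts and myofibroblasts.

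Over all genes, DESeq2 called 34, 41, 6 and 29 genes in acute and chronic fibroblasts and acute and chronic basal cells, against 1, 1, 0 and 0 by edgeR. No filter on low counts gave 92, 44, 12 and 121 in acute and chronic myofibroblasts and endothelium, against 3, 1, 6 and 24, and 3466 against 2180 between endothelium and fibroblasts. Sums of at least 10 cells gave 0 in both endothelial injury comparisons and 1655 in mural cells, where DESeq2 gave 430, against 1060. Over stromal sub-types 1400 genes were called without integration, against 3115. Plain library totals turned 2951 higher and 2683 lower genes in basal against intermediate cells into 3716 and 2117. RLE size factors moved the median of all genes between endothelium and fibroblasts from 0.08 to -0.02 on the log2 scale. Depth limits the smallest sums: the endothelium of chronic replicate 1 held 72026 UMIs, where 3 UMIs are 41.7 CPM.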
